A study of Mus musculus with 24 samples.

Results

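Cortex taken 3 days after a stroke was compared with intact cortex of mice aged 3 months, and the response was followed across every gene counted. The comparison used 12 of the 24 libraries of the series, namely the 6 titled MCAO_3M and the 6 titled Ctrl_3M, each with letters A to F. The MCAO mice were C57Black/6 animals of 3 months in which the middle cerebral artery was coagulated and then severed under isoflurane, a permanent occlusion (MCAO) that leaves a small infarct in parietal cortex, and that cortex was taken 3 days later. The controls were intact C57Black/6 mice of 3 months without surgery, so the comparison holds the effects of anaesthesia and surgery together with those of the occlusion. The other 12 libraries came from mice of 18 months with the same pair of conditions and served here for the shared estimate of spread and for 1 comparison between ages. RNA of whole tissue was read at the 3′ ends of polyadenylated transcripts (QuantSeq, from 400 ng total RNA). Values are given as CPM, each gene's count scaled to the size of its library.

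A blocked artery deprives the cortex it feeds of oxygen and glucose, and neurons in the core of the territory die. Microglia and astrocytes around the core become reactive, blood monocytes and neutrophils enter, and phagocytes take up dead cells and myelin. In the following days glia and vessel cells divide and new matrix is laid down at the edge of the lesion.

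Gene counts ran from 4.17 to 13.1 M per library after MCAO, with library A the deepest, and from 3.53 to 6.98 M in controls. The tissue carried the markers its label names. Transcripts of 20 genes of cortical projection neurons summed to 3132 to 3706 CPM in MCAO libraries and 4619.6 to 5062 CPM in controls, and the neuronal vesicle protein gene Snap25 was present in every library. In bulk tissue such a difference cannot tell fewer cells of a type from less RNA per cell, and this holds for every result below. At 1 common depth MCAO libraries showed 18537 ± 243 genes with a count and controls 17870 ± 155 (mean ± SD, n = 6 each, exact permutation p = 0.002165, which is the smallest that 6 against 6 can give, and 0.008658 adjusted over 4 library measures). Spike-ins made up 9.10 ± 1.04% of counts in MCAO libraries and 6.36 ± 1.21% in controls (exact permutation p = 0.004329, adjusted 0.008658).

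Libraries A and C of MCAO stood apart from the other 4. Of 14599 genes tested, both lay below the other 10 libraries of 3 months in 2847 (19.5%) and above them in 2339 (16%). The difference between A and C and the other MCAO libraries ran with base composition, from a median log2 difference of -0.33 in the fifth of genes with the lowest GC content of the last 500 transcript bases to 0.39 in the fifth with the highest (Spearman's rho 0.41 across 14563 genes, which are not independent replicates). For MCAO against control the same rho was 0.15, and -0.01 without A and C. For a called gene named below, the value without these libraries is given where it ends the call or moves the change by more than 1.5 times, and for a gene list where the count of calls moves so by at least 2 genes or the median given moves so. Library C of MCAO and library D of the controls also held choroid plexus RNA, described with the other neighbouring tissues below.

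Of the 14599 genes tested, 2930 (20.1%) were higher and 2521 (17.3%) lower after MCAO, by edgeR's quasi-likelihood test at a Benjamini-Hochberg adjusted p under 0.05. The groups did not overlap, MCAO higher, in 1617 genes (11.1%), and MCAO lower in 1135 (7.77%). In 37.3% of genes the call was in either direction. Large rises outnumbered large falls: a log2 change of 1 or more was found for 1661 risen genes (11.4%) and 140 fallen genes (0.959%), and for 86 fallen genes without libraries A and C. A fit of the 12 libraries of 3 months alone called 1572 genes lower. All of these counts rest on TMM scaling, which centres on the bulk of the genes. Scaling by spike-ins shifted the median log2 change of all genes to -0.49, against -0.04, with 1411 genes then higher and 6178 lower, whereas scaling by total gene counts gave a median of 0.09 with 3722 higher and 1211 lower. Changes below are relative to that median, and a list whose median turns direction under either scaling is named as such.

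A gene entered the test where at least 6 of the 24 libraries reached 1.94 CPM. Of the genes tested, 1404 (9.62%) did so only with MCAO libraries, so that a rise among them was in part set by this filter. Genes that reached it in control libraries alone are called control-detected below. Of these 13195 genes 2117 (16%) rose and 2513 (19%) fell, and a log2 change of 1 or more was found for 876 of the risen and 135 of the fallen genes. This choice leans the other way among low genes, since it asks for counts in controls. Of 139 control-detected genes averaging under 2 CPM 0 rose and 19 fell. Where 3 or more members of a list entered only with MCAO libraries, the count among its control-detected members follows the full count, and the median over the tested members is a description. Of genes averaging under 2 CPM 84.2% entered only with MCAO libraries and of those from 2 to 10 CPM 16.2%, so nothing is read from the excess of rises in these classes. Among genes from 10 to 50 CPM, of which 0.567% entered so, 19.3% rose and 14.4% fell. In the class from 50 to 200 CPM 12% rose and 29.9% fell, and among genes of at least 200 CPM 9.55% rose and 46.1% fell, by a median log2 change of -0.47 among those that fell. A count of falls in a list of abundant genes has to be set against these shares. The precision differed with level too, with a median SE of the log2 change of 0.425 in the lowest class and 0.12 in the highest. Together the risen genes took 15.2 ± 2.96% of gene counts in MCAO libraries and 7.17 ± 0.0947% in controls, while the fallen genes took 34.9 ± 3.25% after MCAO and 45.5 ± 0.205% in controls (mean ± SD, n = 6 each).

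**Figure D1:**
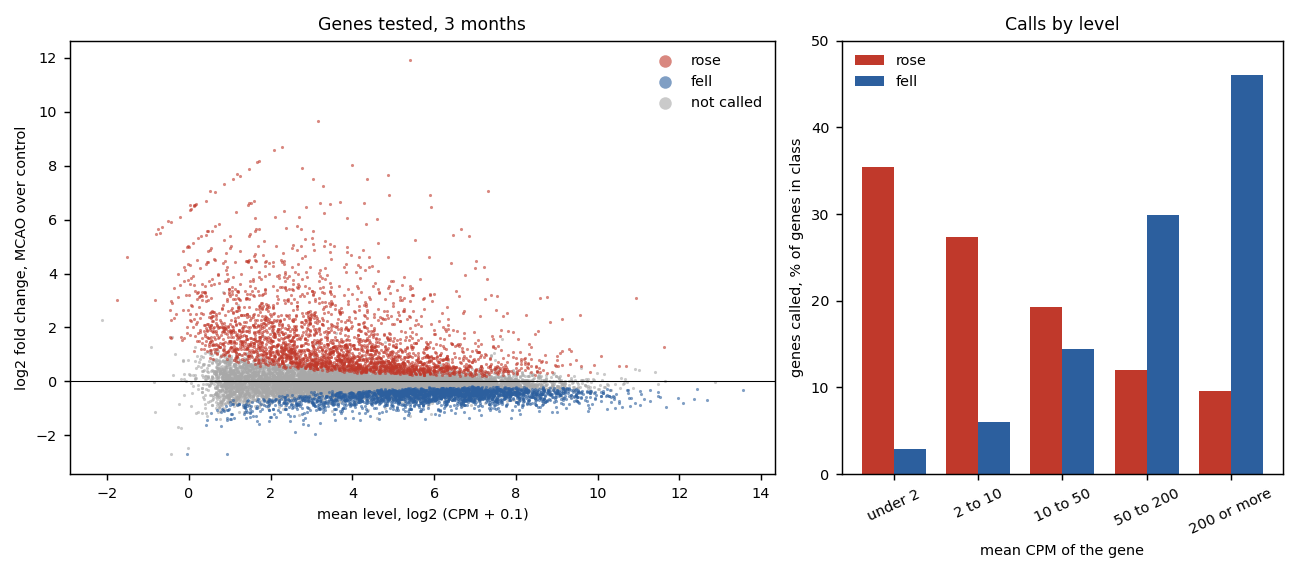
Each point is a gene tested, with the mean level over the 12 libraries of 3 months on the x axis (log2 CPM) and the log2 fold change of MCAO over control on the y axis. Genes that rose are red, genes that fell are blue and the others grey. The right panel gives the percentage of genes that rose (red) and fell (blue) in 5 classes of mean CPM, with falls at 14.4% from 10 to 50 CPM and at 46.1% in the highest class. In the lowest class 84.2% of genes entered the test only with MCAO libraries, so its share of rises was in part set by the filter.

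In CPM, the largest gain was that of Ctsd, encoding cathepsin D, an acid protease of lysosomes (ENSMUSG00000007891, GRCm38 chromosome 7, 142375911 to 142388038, minus strand). It had 1498, 2419 and 7581 CPM in MCAO libraries (lowest, median and highest of 6), against 391, 425 and 447 CPM in controls. The groups were far apart, and A and C were the highest MCAO libraries. The log2 fold change was 3.08 ± 0.31 (SE, edgeR adjusted p = 2.7e-08), and 2.25 without A and C. Next in gain came Actb, cytoskeletal actin (4459 ± 1293 CPM after MCAO, 1862 ± 156 CPM in controls), Cd63, a tetraspanin of late endosomes (1286 ± 517 CPM after MCAO and 234 ± 17.7 CPM in controls), and Sparc, a matrix protein of glia and vessels (936 ± 468 CPM after MCAO and 187 ± 24.1 CPM in controls). Complement subunit C1qa (779 ± 557 CPM after MCAO and 89.8 ± 7.4 CPM in controls), the microglial chemokine receptor Cx3cr1 (587 ± 349 CPM after MCAO and 163 ± 11.9 CPM in controls, log2 1.86 ± 0.25, and 1.19 without A and C) and the iron carrier transferrin, Trf (754 ± 264 CPM after MCAO and 164 ± 16.3 CPM in controls), were also among the 15 largest gains.

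The largest losses in CPM were mostly of transcripts abundant in neurons, beside that of the astrocytic glutamate transporter Slc1a2. Camk2n1, an inhibitor of the synaptic kinase CaMKII (ENSMUSG00000046447, chromosome 4, 138454314 to 138460123, plus strand), had 4397, 4905 and 5593 CPM after MCAO, against 7159, 8032 and 9140.3 CPM in controls. No MCAO library reached the control range, and A and C lay within the spread of the others (log2 fold change -0.70 ± 0.13, edgeR adjusted p = 8e-05). Ppp3r1, the regulatory subunit of calcineurin, fell by a log2 change of -0.79 ± 0.14 to 3172 ± 476 CPM, against 5478 ± 481 CPM in controls. Nrgn, the postsynaptic calmodulin-binding protein neurogranin, fell by a log2 change of -0.64 ± 0.19, although libraries A and C, at 5422 and 5412 CPM, lay inside the control range. Syt1 (-0.93 ± 0.17), Dlgap1 (-0.88 ± 0.12) and Ndrg4 (-0.96 ± 0.20) were other members of the 15 largest losses.

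Genes of dividing cells rose together. All 22 mitosis genes rose, against 20.1% of all genes tested, with a median log2 change of 3.6, and in each of the 22 the groups did not overlap (11.1% of all genes). Of these, 15 entered the test only with MCAO libraries, and 7 of 7 control-detected members rose. Their transcripts summed to 589 ± 147 CPM after MCAO and 46.5 ± 5.79 CPM in controls. Cdk1, the kinase that starts mitosis (ENSMUSG00000019942, chromosome 10, 69335146 to 69352938, minus strand), had 24.7, 45.6 and 77.4 CPM after MCAO and 0, 0.674 and 1.45 CPM in controls. Control library B held no count of it, and library A was the lowest of the MCAO libraries. Its log2 fold change was 6.04 ± 0.32 (edgeR adjusted p = 3.3e-13).

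Top2a, the topoisomerase that untangles chromosomes, stood at 119 ± 41.9 CPM after MCAO and 1.25 ± 0.853 CPM in controls. Ube2c, which marks mitotic cyclins for destruction, stood at 28.8 ± 6.5 CPM after MCAO and 0.414 ± 0.264 CPM in controls, and Birc5, survivin of the dividing spindle, at 71.8 ± 25 CPM after MCAO and 4.93 ± 0.394 CPM in controls. Prc1, which bundles the midzone of the spindle, rose by 4.78 ± 0.32 on the log2 scale. DNA replication genes rose in 17 of 24 cases (median 1.29, 12 of 18 control-detected). Among subunits of the replicative helicase, Mcm3 rose by 3.14 ± 0.25, Mcm6 by 2.18 ± 0.18 and Mcm2 by 2.36 ± 0.22, and Mcm4 did not pass (0.69 ± 0.33, edgeR adjusted p = 0.11), though it did without A and C (1.14, adjusted p = 2.1e-06). Rrm2, which makes deoxynucleotides, rose by 4.02 ± 0.34, Gins2 by 3.28 ± 0.22 and Pclaf, a partner of the sliding clamp, by 6.9 ± 0.44.

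Promoters of mitosis genes are known to hold CCAAT boxes and a cell cycle homology region (CHR, TTTGAA). In RefSeq promoters of GRCm38.p6, taken from 250 bases before to 50 after the transcript start, and counting both strands, CCAAT was found in 89.5% and TTTGAA in 73.7% of 19 promoters of mitosis genes, against 61.9% and 9.52% of 21 promoters of DNA replication genes and 37.4% and 17.9% of all 32851 promoters. A match is a description of letters and not of a bound site. The promoters of Cdk1 (chr10:69352863-69353162, minus strand) and Ube2c (chr2:164769679-164769978, plus strand), which had some of the largest changes, are shown 5′ to 3′ with these motifs on either strand in capitals (ATTGG and TTCAAA are their reverse complements).
Cdk1: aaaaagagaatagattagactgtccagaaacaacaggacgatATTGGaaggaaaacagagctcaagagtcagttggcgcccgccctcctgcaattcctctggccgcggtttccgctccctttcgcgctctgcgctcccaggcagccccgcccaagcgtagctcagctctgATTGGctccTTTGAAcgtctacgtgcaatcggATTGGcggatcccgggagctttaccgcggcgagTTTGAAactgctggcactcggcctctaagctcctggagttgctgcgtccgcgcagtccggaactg
Ube2c: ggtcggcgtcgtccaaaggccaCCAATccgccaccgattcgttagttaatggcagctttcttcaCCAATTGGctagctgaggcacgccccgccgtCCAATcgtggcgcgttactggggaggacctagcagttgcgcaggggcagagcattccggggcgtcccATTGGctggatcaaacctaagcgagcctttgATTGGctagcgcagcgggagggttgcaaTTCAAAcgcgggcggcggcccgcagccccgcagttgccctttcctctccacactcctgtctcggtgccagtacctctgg

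**Figure D2:**
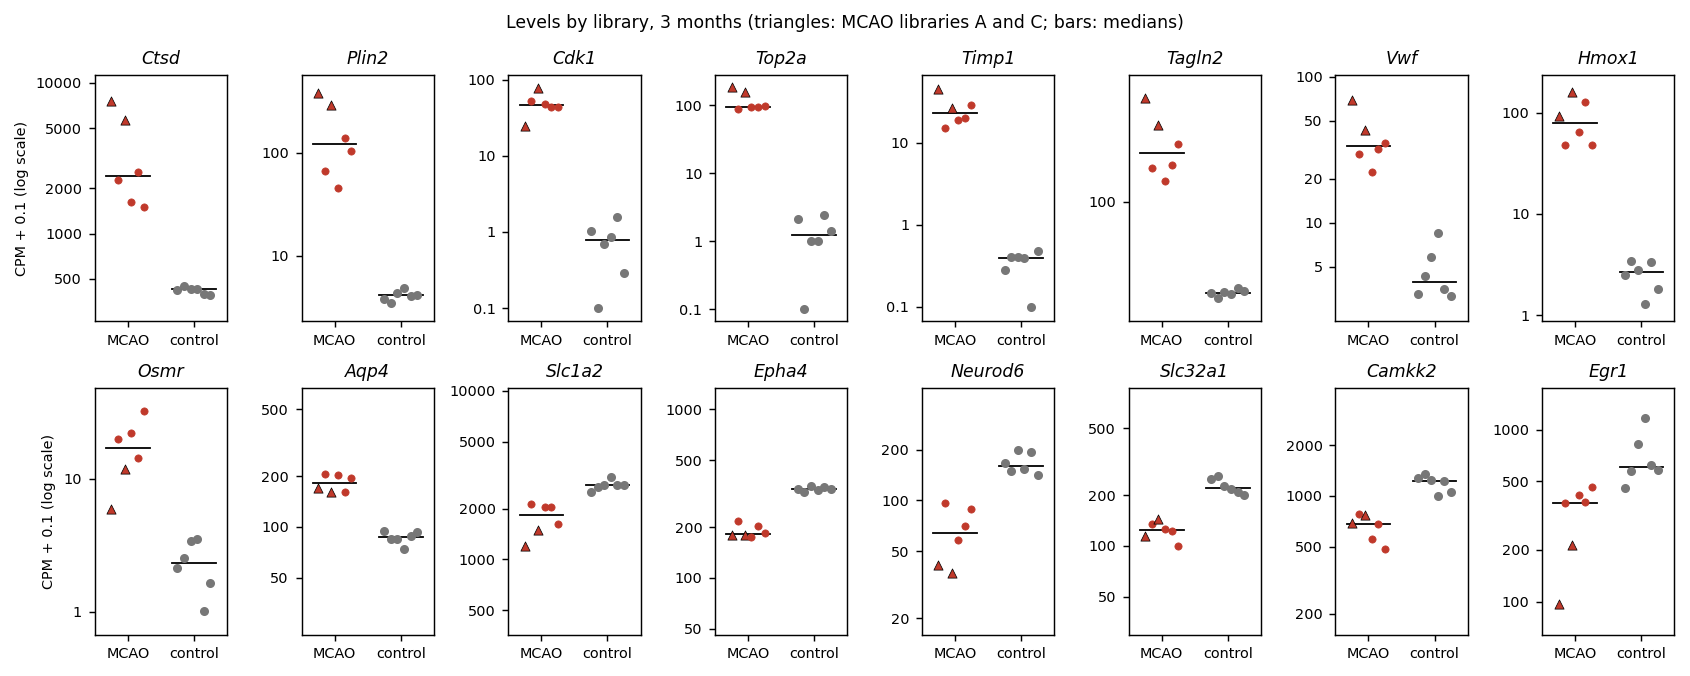
CPM on a log scale (0.1 added, so that libraries with no count appear at the bottom) in each library for 16 genes, with the 6 MCAO libraries left (red) and the 6 controls right (grey). Triangles mark MCAO libraries A and C and bars the group medians. A and C sit highest for Ctsd, Plin2 and Tagln2 and lowest for Neurod6.

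Phagocyte genes rose together across receptors, lysosomes and lipid handling. Lysosomal genes rose in 18 of 20 cases with a median log2 change of 2.15, and in 16 of them the groups did not overlap. Their summed level was 9351 ± 4436 CPM after MCAO and 2629 ± 136 CPM in controls. Beside Ctsd, the cysteine cathepsins Ctsb, Ctsl and Ctss rose by 1.4 ± 0.14, 1.68 ± 0.10 and 2.53 ± 0.19, the membrane protein Lamp2 by 1.09 ± 0.08 and the glucuronidase Gusb by 2.44 ± 0.14.

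Lipid uptake, storage and efflux genes rose in 14 of 17 cases (median 1.48, 10 of 13 control-detected). Plin2, which coats lipid droplets (ENSMUSG00000028494, chromosome 4, 86648386 to 86670060, minus strand), had 45.3, 122 and 384 CPM after MCAO, against 3.33, 4.0 and 4.79 CPM in controls. The lowest MCAO library, D, was well above the highest control, and A and C were highest (log2 fold change 5.41 ± 0.46, edgeR adjusted p = 3.5e-09, and 4.46 without A and C). Gpnmb, a glycoprotein of lipid-laden macrophages, rose by 6.91 ± 0.74, the acid lipase Lipa by 1.74 ± 0.20, the cholesterol exporter Abca1 by 1.48 ± 0.18 and lipoprotein lipase, Lpl, by 1.45 ± 0.19. Cholesterol synthesis genes fell in 7 of 21 cases and 1 rose (median -0.23), with Hmgcs1 at -0.44 ± 0.12 and Cyp51 at -0.46 ± 0.12. Under total-count scaling 2 of them fell. The 21 genes summed to 1732 CPM in controls, and 29.9% of all genes from 50 to 200 CPM fell. Their share of falls was near that, so it is not read as a trait of the list.

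Among phagocytic receptors and bridging ligands, 14 of 19 rose and 1 fell (median 3.2, 8 of 13 control-detected). The receptor kinases that bind phosphatidylserine through bridging proteins moved both ways. Axl rose by 1.17 ± 0.19 and Mertk by 0.72 ± 0.18, Tyro3 fell by a log2 change of -0.49 ± 0.15, and the call of Mertk was lost without A and C (0.28, adjusted p = 0.091). Protein S, Pros1, a bridging ligand of the list, had 86.8, 119.5 and 135 CPM after MCAO and 20.3, 24.1 and 27 CPM in controls. Its libraries did not overlap and varied little within a group, giving a log2 change of 2.26 ± 0.12 with an edgeR adjusted p of 3.3e-13. The Fc receptor Fcgr3 rose by 3.2 ± 0.29, its signalling chain Fcer1g by 3.71 ± 0.33 and the complement receptor C3ar1 by 4.62 ± 0.32.

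All 13 tested of 18 pattern recognition receptors rose (median 3.08), but 10 of them entered the test only with MCAO libraries (3 of 3 control-detected). The 13 held Tlr3, the sensor of double-stranded RNA, at 0.62 ± 0.13, the endosomal receptor Tlr13 at 4.36 ± 0.34 and the beta-glucan receptor Clec7a at 5.02 ± 0.58. Cd14 rose by 3.25 ± 0.38 and the shared adaptor Myd88 by 1.61 ± 0.18. The superoxide-making NADPH oxidase of phagocytes rose in its membrane subunits Cybb (3.85 ± 0.40) and Cyba (3.73 ± 0.40) and in its cytosolic subunit Ncf1 (2.93 ± 0.24), within a list of oxidase and peroxide enzymes of which 9 of 13 (6 of 10 control-detected) rose and 1 fell. Eicosanoid genes rose in 10 of 12 cases (median 1.57). The leukotriene partner Alox5ap rose by 2.61 ± 0.21, thromboxane synthase Tbxas1 by 2.8 ± 0.24, Hpgds by 2.18 ± 0.22 and the constitutive cyclooxygenase Ptgs1 by 0.96 ± 0.14, and the inducible cyclooxygenase Ptgs2 did not pass (0.11 ± 0.47, edgeR adjusted p = 0.88). Purinergic signalling genes rose in 11 and fell in 2 of 15 cases (7 of 11 control-detected rose), and 5 rose and 3 fell under spike-in scaling. The nucleotide receptors P2ry6, P2rx7 and P2ry12 rose by 3.33 ± 0.38, 1.22 ± 0.20 and 0.69 ± 0.20.

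Markers of blood leukocytes were counted by cell type. Neutrophil granule and surface genes, 12 in all, summed to 44.9 ± 28.7 CPM after MCAO and 5.47 ± 1.06 CPM in controls. Of these, 6 were tested, 5 of which entered only with MCAO libraries, so that their rises (median log2 change 5.29, or 4.43 with a gene that had no count in controls set to its bound) were in part set by the filter, and 6 were too low to test. S100a8, a calcium-binding protein stored by neutrophils, had 4.73, 11.6 and 27.8 CPM after MCAO and 0, 0.242 and 0.384 CPM in controls. The groups did not overlap and library F was highest (log2 fold change 5.65 ± 0.77, edgeR adjusted p = 3.2e-06). Mmp9 lost its call without A and C (2.13 ± 0.55 in all libraries, 1.3 without A alone, and 1.02 with adjusted p = 0.13 without both), and the chemokine receptor Cxcr2, with no count in any control, was at least 14.4-fold higher, a bound set by 3 counts over the control group.

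Of 15 T cell markers 2 were tested, with Il7r higher (2.37 ± 0.41) and Trbc2, the constant segment of the T cell receptor beta chain, lower (-1.0 ± 0.30). Il7r entered the test only with MCAO libraries. The invariant T cell receptor chains Cd3e, Cd3d and Cd3g had 7, 6 and 1 counts over all 6 MCAO libraries and 1, 0 and 0 over all controls. Among the other untested markers Trac had 24 and 5 counts, Lck 69 and 22 and Cd28 56 and 11. Foxp3 had 1 in each group, and no untested marker had fewer counts after MCAO. With the Cd3 chains so low in controls, the fall of Trbc2 is not read as a loss of T cells. None of 9 markers of natural killer and cytotoxic cells had enough counts to be tested, nor did 6 of 8 B cell markers, and the 2 tested B cell genes, Ighm and Jchain, did not pass (0.33 ± 0.62 and -0.45 ± 0.93, edgeR adjusted p = 0.71 and 0.74), with a median of -0.06 that was 0.11 without A and C and 0.08 under total-count scaling. Dendritic cell markers were mixed, 3 higher and 2 lower of 5 tested, but 1 and 1 without A and C and 1 and 0 without control library D and MCAO library C. Itgax rose with a ratio of 73.2 (95% counting interval 24.8 to 357), whereas Flt3, a receptor of dendritic cell growth, fell by a log2 change of -1.05 ± 0.34, a call lost without A and C (-0.52, adjusted p = 0.11). Only 1 of 7 mast cell markers, Kit, was tested and it did not pass (-0.39 ± 0.19, edgeR adjusted p = 0.1).

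Chemokine receptors rose in 8 of 11 tested cases (median 1.99, 2 of 5 control-detected). Ccr2, which draws monocytes from blood, had 3.54, 7.89 and 45.5 CPM after MCAO and 0, 0.334 and 0.723 CPM in controls. Library F was the highest and far above the next, and the groups did not overlap. The log2 change was 5.26 ± 0.68 (edgeR adjusted p = 1.4e-06), and 4.41 without library F. The chemokine receptor Cxcr4 rose by 3.91 ± 0.37.

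TNF and NF-kB pathway genes rose in 15 of 17 cases (median 1.5, 6 of 7 control-detected). Tnfrsf1a, the main TNF receptor (ENSMUSG00000030341, chromosome 6, 125349362 to 125362484, plus strand), had 50.8, 67.7 and 99.6 CPM after MCAO, against 9.98, 13 and 15.1 CPM in controls. Its libraries did not overlap, A and F being highest, and the log2 change was 2.43 ± 0.17 (edgeR adjusted p = 2.6e-11). Tnfrsf1b rose by 3.37 ± 0.34, the TWEAK receptor Tnfrsf12a by 2.29 ± 0.28, and the nuclear cofactor Bcl3, a partner of NF-kB, by 6.08 ± 0.61.

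Genes of a list of the interleukin-1 and interleukin-10 families, which also holds receptors of other interleukins, rose in 11 of 13 cases (6 of 8 control-detected). They included the receptor Il1r1 (2.29 ± 0.28) and its blocking ligand Il1rn, which had no count in controls and was at least 40.4-fold higher by the same bound, and the receptors of interleukins 4 and 13, Il4ra (2.32 ± 0.31) and Il13ra1 (2.39 ± 0.24). Genes of alternatively activated macrophages rose in 7 of 8 cases and those of classically activated macrophages in 6 of 7, with medians of 2.48 (2.37 with those lacking control counts set to the bound) and 1.82, and with 2 of 3 and 2 of 3 control-detected members risen. The folate receptor Folr2 (4.24 ± 0.58), Pf4 (3.49 ± 0.48) and the mannose receptor Mrc1 (1.39 ± 0.34) stand in the first list, the costimulator Cd86 (1.82 ± 0.30), Irf1 (1.23 ± 0.20) and Gbp5 (1.46 ± 0.30) in the second.

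Genes of the gp130 receptor, which carries the signals of interleukin-6, oncostatin M and related cytokines to the transcription factor STAT3, rose in 9 of 14 cases (median 1.16, 7 of 11 control-detected). The ligand Osm did not pass (1.64 ± 0.71, edgeR adjusted p = 0.071), but did without A and C (2.24, adjusted p = 0.0053). Its receptor Osmr had 5.79, 17 and 32.1 CPM after MCAO and 0.904, 2.22 and 3.44 CPM in controls. Here library A was the lowest MCAO library and F the highest, with no overlap (log2 fold change 2.94 ± 0.34, edgeR adjusted p = 1.3e-07). The gp130 chain Il6st rose by 1.05 ± 0.12, Il6ra by 1.71 ± 0.22, Stat3 by 1.27 ± 0.15 and the feedback inhibitor Socs3 by 2.27 ± 0.46. The STAT element TTCNNNGAA was in 4.55% of 22 promoters of these genes and in 8.3% of all promoters.

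Interferon response genes rose in 15 of 19 tested cases (median 1.65, 8 of 11 control-detected, and 18 rose without A and C). Isg15, a ubiquitin-like protein (ENSMUSG00000035692, chromosome 4, 156199424 to 156200818, minus strand), had 12.5, 23.2 and 55.9 CPM after MCAO and 6.01, 7.62 and 10.02 CPM in controls. The lowest MCAO library, C, lay just above the highest control, and F was highest (log2 fold change 1.74 ± 0.40, edgeR adjusted p = 0.0016). Larger changes were those of Ifi27l2a (4.77 ± 0.48), the virus tether Bst2 (3.25 ± 0.34) and Oasl2 (2.37 ± 0.42), and the RNA sensor Ddx58 rose by 1.65 ± 0.23.

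The interferon-stimulated response element, searched on both strands as GAAA, any pair of bases and GAAA again, was in 60% of 15 promoters of interferon response genes and in 3.44% of all 32851. The promoters of Isg15 (chr4:156200769-156201068, minus strand) and Rsad2 (chr12:26456403-26456702, minus strand), which both differ in their response between ages as given at the end, are shown with matches in capitals. On the other strand it reads TTTC, a pair of bases and TTTC, and the 3 matches of Isg15 overlap.
Isg15: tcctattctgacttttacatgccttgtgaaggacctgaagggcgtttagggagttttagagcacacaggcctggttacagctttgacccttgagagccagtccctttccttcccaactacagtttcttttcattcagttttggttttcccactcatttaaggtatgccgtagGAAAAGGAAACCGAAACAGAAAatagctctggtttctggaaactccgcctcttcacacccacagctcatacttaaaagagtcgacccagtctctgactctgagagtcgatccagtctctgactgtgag
Rsad2: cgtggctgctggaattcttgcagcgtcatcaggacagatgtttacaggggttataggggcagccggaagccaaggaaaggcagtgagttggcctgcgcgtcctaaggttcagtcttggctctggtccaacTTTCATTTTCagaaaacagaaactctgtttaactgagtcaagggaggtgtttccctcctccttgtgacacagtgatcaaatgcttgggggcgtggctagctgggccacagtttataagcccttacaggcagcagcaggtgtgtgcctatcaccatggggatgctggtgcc

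Of 21 injury-induced transcription factors 16 rose (median 1.27, 13 of 17 control-detected). The stress factor Atf3 rose by 3.51 ± 0.45, Runx1 of blood and microglial development by 3.81 ± 0.28, the myeloid factor Irf8 by 2.68 ± 0.20, and Fli1 of endothelium by 2.24 ± 0.21. Jun and Junb did not pass (0.30 ± 0.12 and 0.05 ± 0.28, edgeR adjusted p = 0.054 and 0.91), though Jun did without A and C (0.42, adjusted p = 0.0091).

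**Figure D3:**
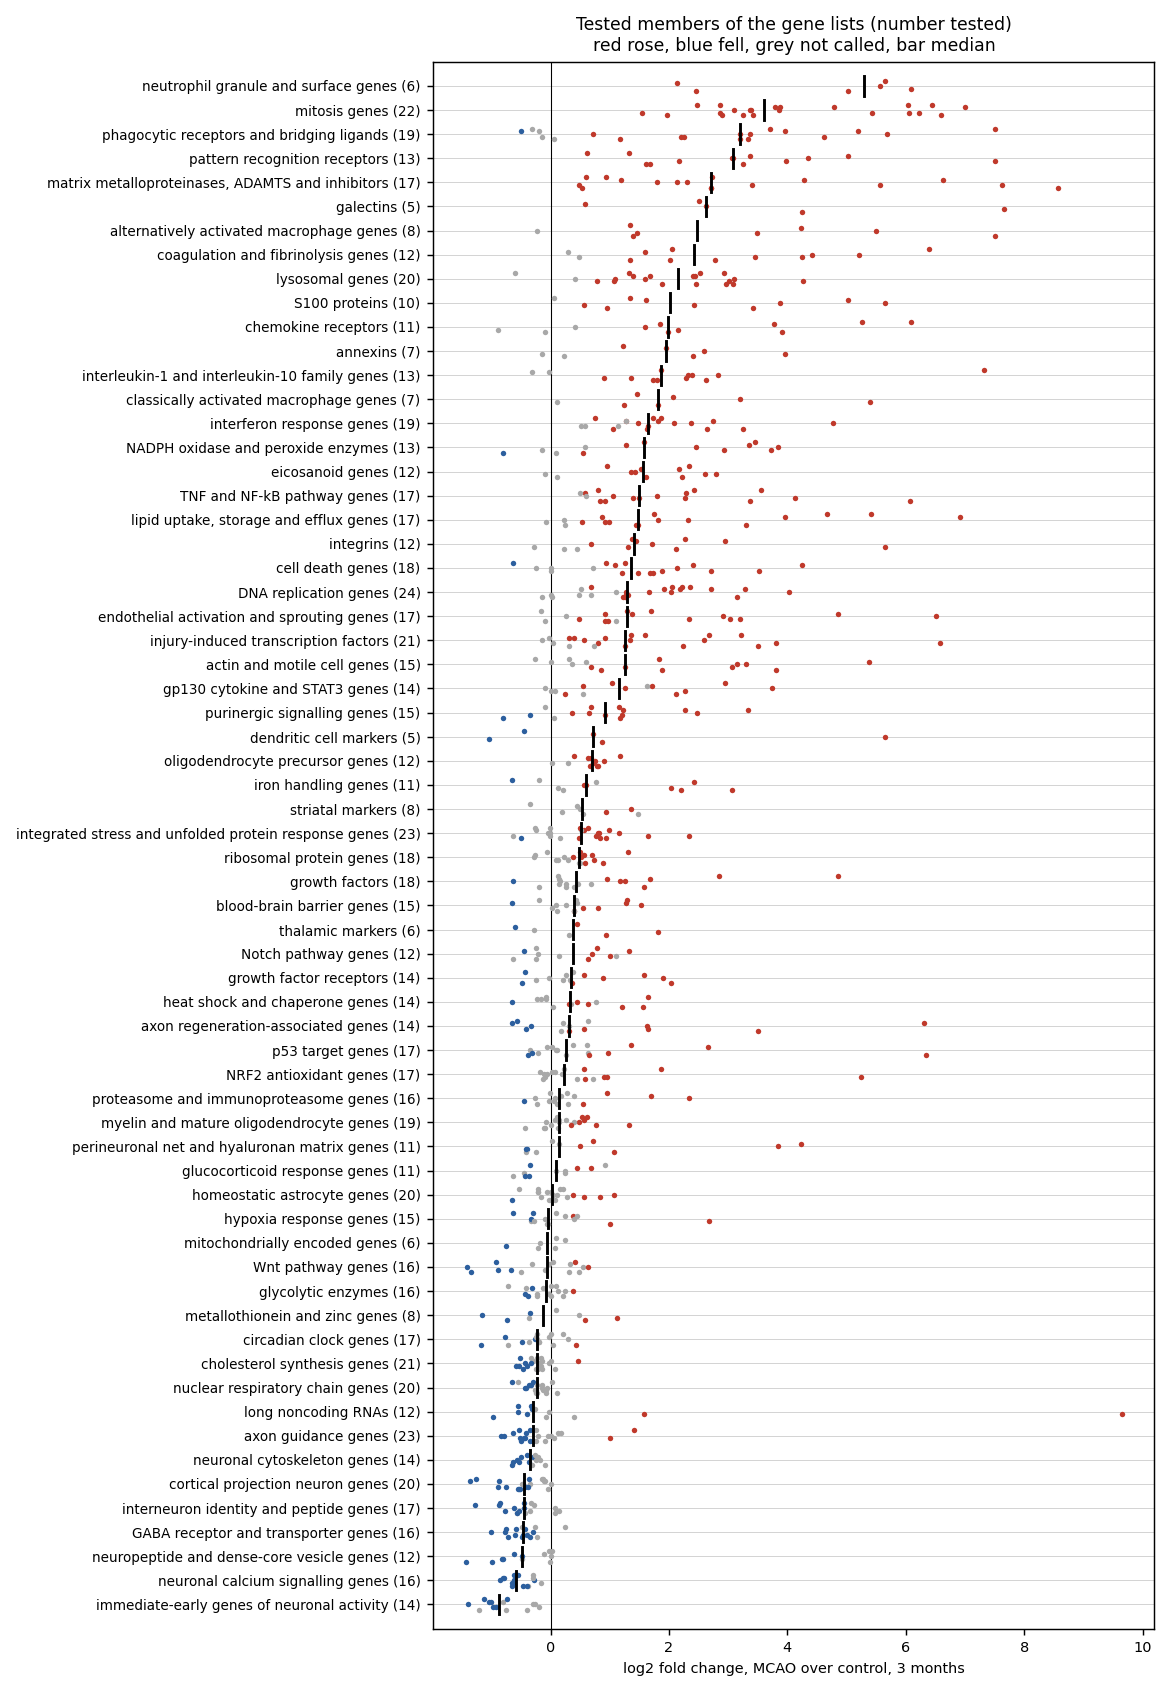
Log2 fold change of MCAO over control for each tested member of the gene lists (points, red rose, blue fell, grey not called) with the list median as a black bar, in order of the median. Neutrophil genes (median 5.29, 5 of 6 tested members having entered only with MCAO libraries) and mitosis genes (median 3.6, 15 of 22 so) stand highest, and immediate-early genes, with a median of -0.86, lowest among lists of at least 5 tested members.

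Of 18 metalloproteinases, ADAMTS proteases and inhibitors 17 were tested and all rose (median 2.7, 9 of 9 control-detected), and 14 rose without A and C. Timp1, the inducible inhibitor of these proteases, had 14.8, 23.1 and 44.7 CPM after MCAO and 0, 0.3 and 0.384 CPM in controls. The lowest MCAO library lay far above the highest control, and the log2 change was 6.63 ± 0.51 (edgeR adjusted p = 1.8e-10). Mmp14 rose by 2.3 ± 0.24, Mmp19 by 4.29 ± 0.45, Adam8 by 3.41 ± 0.31 and Adamts1 by 1.8 ± 0.17.

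Integrins rose in 9 of 12 cases. The leukocyte integrin Itgam had almost equal levels in the MCAO libraries, 21.9, 24 and 27 CPM, against 3.9, 4.47 and 6.51 CPM in controls (log2 fold change 2.27 ± 0.15, edgeR adjusted p = 4.2e-12). A and C lay within that narrow range. Its partner Itgb2 rose by 2.94 ± 0.21, and the widely expressed Itgb1 by 1.72 ± 0.15, Itgb5 by 2.11 ± 0.19 and Itga6 by 1.3 ± 0.11. Annexins rose in 5 of 7 cases, led by Anxa2 (3.96 ± 0.37) and Anxa3 (2.59 ± 0.21), while Anxa6 and Anxa7 did not pass (0.22 ± 0.17 and -0.14 ± 0.11). S100 proteins rose in 9 of 10 cases (6 of 7 control-detected), with S100a4 at 3.42 ± 0.27 and S100a6 at 2.42 ± 0.16, and the exception was S100b of astrocytes (0.07 ± 0.14, edgeR adjusted p = 0.75).

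All 5 tested galectins rose (3 of 3 control-detected). Lgals1 had 137, 205 and 616 CPM after MCAO, A and C being highest, and 12.4, 13.8 and 20.5 CPM in controls. The log2 change was 4.25 ± 0.31, and 3.56 without A and C (edgeR adjusted p = 1.3e-10 and 3e-15). Actin and motile cell genes rose in 10 of 15 cases (median 1.26). Tagln2, an actin binder, rose by 3.8 ± 0.30, the Arp2/3 subunit Arpc1b by 3.16 ± 0.22, moesin, Msn, by 3.07 ± 0.22, and the progenitor filament nestin, Nes, by 3.3 ± 0.23.

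In vessels, genes of endothelial activation and sprouting rose in 13 of 17 cases (median 1.29, 7 of 10 control-detected). Vwf, von Willebrand factor of platelet adhesion (ENSMUSG00000001930, chromosome 6, 125546774 to 125686679, plus strand), had 22.2, 33.6 and 68.8 CPM after MCAO and 3.07, 3.83 and 8.37 CPM in controls. Library A was highest and the groups did not overlap (log2 fold change 3.04 ± 0.32, edgeR adjusted p = 3.5e-08). The leukocyte adhesion molecules Icam1 and Vcam1 rose by 2.92 ± 0.41 and 0.93 ± 0.16, the VEGF receptor Kdr by 1.37 ± 0.18 and the destabilising ligand Angpt2 by 2.34 ± 0.34.

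Blood-brain barrier genes rose in 6 and fell in 1 of 15 cases, with a median of 0.39 that was -0.03 under spike-in scaling. The junction protein Cldn5 rose by 1.52 ± 0.23, the tricellular junction protein Lsr by 1.27 ± 0.17 and the lactate transporter Slc16a1 by 0.80 ± 0.18, and occludin, Ocln, did not pass (0.12 ± 0.23, edgeR adjusted p = 0.72). Coagulation and fibrinolysis genes rose in 10 of 12 cases (median 2.42, 3 of 5 control-detected). Thbs1 rose by 4.24 ± 0.42, Procr, the protein C receptor, by 3.45 ± 0.36 and thrombomodulin, Thbd, by 1.34 ± 0.17, while F3, tissue factor, did not pass (0.48 ± 0.49, edgeR adjusted p = 0.46), but did without A and C (1.01, adjusted p = 0.032).

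Of glial genes, homeostatic astrocyte genes rose in 4 and fell in 1 of 20 cases (median 0.02, -0.05 without A and C and -0.43 under spike-in scaling). Slc1a2, which clears glutamate, had 1204, 1837 and 2122 CPM after MCAO, with A and C lowest, and 2528, 2749 and 3092 CPM in controls. All 6 MCAO libraries were below all 6 controls (log2 fold change -0.65 ± 0.14, edgeR adjusted p = 0.00055). Aqp4, the water channel of astrocyte endfeet, had 160.1, 183 and 206 CPM after MCAO and 74.2, 86.8 and 94.8 CPM in controls. These libraries did not overlap either, in the opposite direction (1.07 ± 0.12, edgeR adjusted p = 8.4e-08). The potassium channel Kcnj10 rose by 0.83 ± 0.18 and Aldh1l1 by 0.56 ± 0.14, and the second glutamate transporter Slc1a3 and glutamine synthetase, Glul, did not pass (-0.16 ± 0.09 and -0.22 ± 0.10, edgeR adjusted p = 0.17 and 0.074).

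Myelin and mature oligodendrocyte genes rose in 7 of 19 cases, and in 3 with 1 fall without A and C, with a median of 0.14 that was 0.24 without A and C and -0.30 under spike-in scaling. Mbp, a main protein of myelin, did not pass (-0.10 ± 0.15, edgeR adjusted p = 0.66). Cldn11, the junction protein of myelin, had 156, 182 and 264 CPM after MCAO and 45.7, 78.1 and 99.1 CPM in controls, and no library of one group entered the range of the other (1.32 ± 0.17, edgeR adjusted p = 9.4e-07). Oligodendrocyte precursor genes rose in 10 of 12 cases (median 0.70), and in 2 under spike-in scaling. The lineage factor Olig1 had 319 ± 55.7 CPM after MCAO and 170.4 ± 17.4 CPM in controls (0.91 ± 0.11, edgeR adjusted p = 2.9e-07), the differentiation receptor Gpr17 rose by 1.17 ± 0.26, Bcas1 by 0.81 ± 0.18 and Cspg4, the surface proteoglycan NG2, by 0.75 ± 0.20.

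The matrix around neurons changed both ways, with 5 rises and 2 falls among 11 perineuronal net and hyaluronan matrix genes (median 0.14, 0.30 without A and C and -0.31 under spike-in scaling). Tenascin-C, Tnc (4.23 ± 0.36), the hyaluronan receptor Cd44 (3.84 ± 0.26) and versican, Vcan (1.07 ± 0.16), rose. The brain lecticans Bcan and Ncan fell by log2 changes of -0.39 ± 0.13 and -0.41 ± 0.12. Without A and C that of Bcan was -0.59, and the call of Ncan was lost (-0.24, adjusted p = 0.058).

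**Figure D4:**
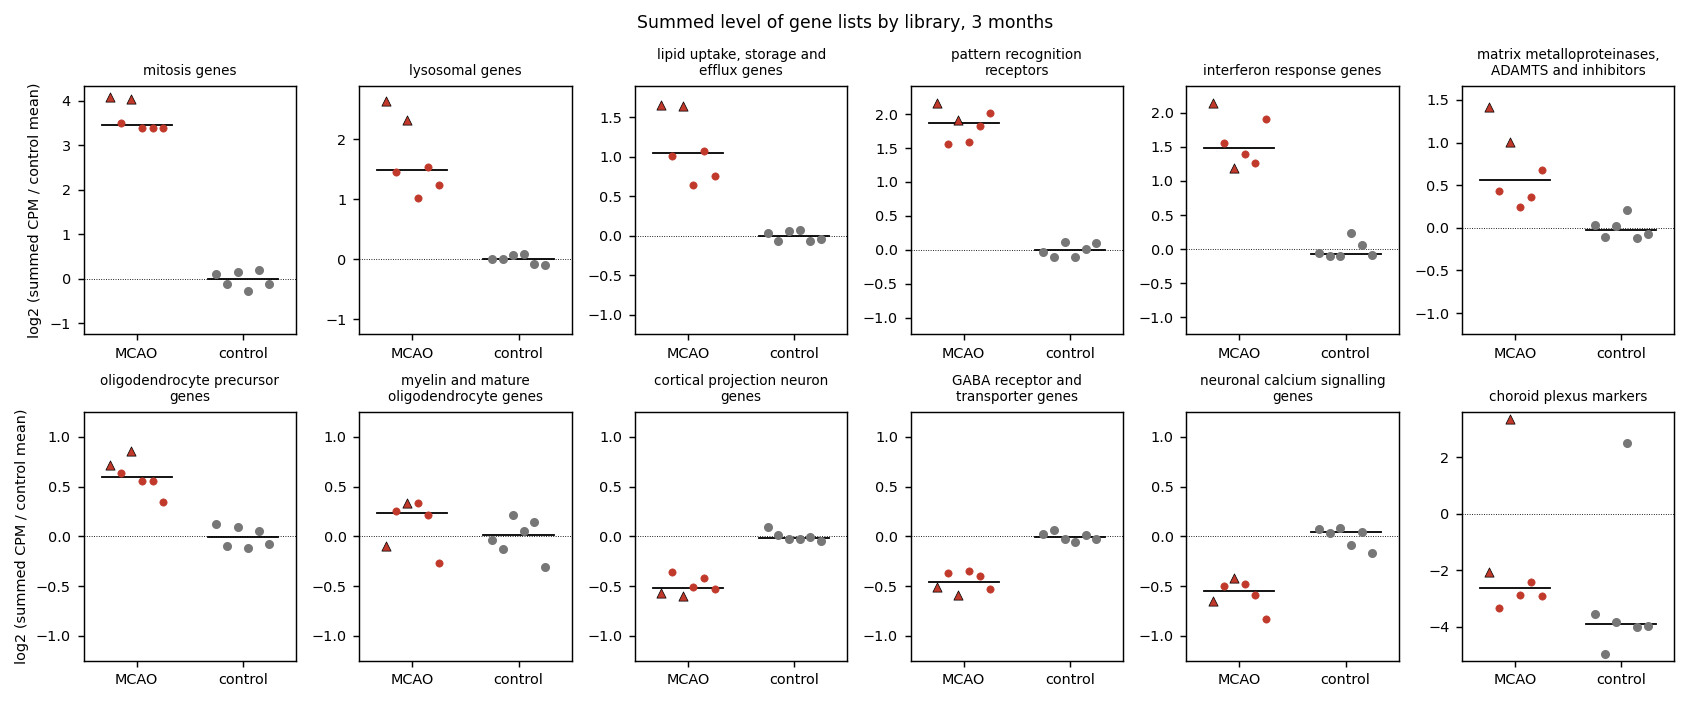
Summed CPM of 12 gene lists in each library, as log2 of the ratio to the mean of the 6 controls, with the 6 MCAO libraries left of the 6 controls in each panel and triangles for MCAO libraries A and C. The first 7 lists lie above all controls in every MCAO library and the 3 neuronal lists below them, whereas myelin genes and choroid plexus markers overlap, the last through control library D.

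Growth factor genes rose in 7 and fell in 1 of 18 cases (5 of 15 control-detected rose). Gdf15, a stress-induced factor, had 5.51, 13 and 36.2 CPM after MCAO and 0, 0.588 and 1.11 CPM in controls. Library A was well above the others and D was lowest, still above every control (4.85 ± 0.49, edgeR adjusted p = 1.4e-08). Igf1 rose by 1.26 ± 0.18, Tgfb1 by 2.85 ± 0.46 and Csf1, the microglial growth factor, by 1.17 ± 0.23. Hbegf, a ligand of the epidermal growth factor receptor, varied little, at 53.5 ± 4.58 CPM after MCAO and 18.2 ± 4.59 CPM in controls (1.57 ± 0.12, edgeR adjusted p = 1.7e-10). Growth factor receptors were mixed, 6 higher and 2 lower of 14 (median 0.34, and -0.09 under spike-in scaling), with Csf1r (1.89 ± 0.22), the endothelial Acvrl1 (2.03 ± 0.28) and Tgfbr2 (1.58 ± 0.29) higher and the neurotrophin receptor Ntrk3 lower (-0.48 ± 0.09).

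Wnt pathway genes fell in 5 and rose in 2 of 16 cases, and their median of -0.06 turned to 0.02 without A and C and to 0.08 under total-count scaling. Wnt9a had 9.94, 19.5 and 38.5 CPM after MCAO, against 49.6, 52.4 and 62.5 CPM in controls. The groups were apart, with library A lowest and B highest of the MCAO libraries (-1.35 ± 0.22, edgeR adjusted p = 2.3e-05). Its family member Wnt5a rose by 0.63 ± 0.15, the antagonist Dkk3 fell by a log2 change of -0.66 ± 0.12, and the receptor of R-spondins Lgr4 fell by a log2 change of -0.92 ± 0.24, or -0.57 without A and C. Notch pathway genes rose in 5 and fell in 1 of 12 cases (median 0.38, 0.60 without A and C and -0.05 under spike-in scaling). Notch1, Notch2 and Notch3 rose by 0.79 ± 0.18, 0.63 ± 0.19 and 1.01 ± 0.18, and the target Hes1 did not pass (-0.21 ± 0.24, edgeR adjusted p = 0.52).

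Axon guidance genes fell in 12 and rose in 2 of 23 cases, and 7 fell without A and C. Of all genes 14.4% from 10 to 50 CPM and 29.9% from 50 to 200 CPM fell. Epha4, a receptor that repels growing axons, had 175, 182 and 216 CPM after MCAO and 324, 336 and 351 CPM in controls. Both groups were tight and did not overlap (-0.83 ± 0.09, edgeR adjusted p = 4.5e-08). Ephb2 (-0.63 ± 0.14), Sema3a (-0.79 ± 0.17) and Plxna2 (-0.42 ± 0.09) fell too. Nrp2, a coreceptor for semaphorins and VEGF, rose by 1.41 ± 0.12.

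In neurons, 12 of 20 projection neuron genes fell and none rose (median -0.45). Among all genes from 50 to 200 CPM 29.9% fell (median of the class -0.15), and among those of at least 200 CPM 46.1% fell (median -0.26). The upper-layer gene Lamp5 had 45.2, 84.7 and 117 CPM after MCAO and 166, 198 and 241 CPM in controls, without overlap and with library A lowest (-1.25 ± 0.21, edgeR adjusted p = 3.6e-05). Tbr1 fell by a log2 change of -0.87 ± 0.16, the calcium buffer Calb1 by -0.75 ± 0.10, Lmo4 by -0.55 ± 0.10 and Neurod2 by -0.47 ± 0.11. Interneuron identity and peptide genes fell in 9 of 17 cases and none rose (median -0.45), against falls in 14.4% of all genes from 10 to 50 CPM and 29.9% from 50 to 200 CPM. Slc32a1, which loads GABA into vesicles, had 99.2, 124 and 145 CPM after MCAO and 202, 221 and 259 CPM in controls. No library overlapped (-0.88 ± 0.12, edgeR adjusted p = 1.2e-06). The GABA-making enzymes Gad1 and Gad2 did not pass (-0.57 ± 0.28 and -0.35 ± 0.18, edgeR adjusted p = 0.12 and 0.13, with Gad1 at -0.16 without A and C), and Vip, Crh and Cck, which encode peptides of interneurons, fell by log2 changes of -0.77 ± 0.18, -0.86 ± 0.20 and -0.45 ± 0.12.

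On the receiving side of inhibition, GABA receptor and transporter genes fell in 12 of 16 cases, or 8 under total-count scaling, and none rose. Of all genes from 50 to 200 CPM 29.9% fell. The receptor subunit Gabra5 fell by a log2 change of -0.77 ± 0.14 and Gabrd by -0.61 ± 0.12, whereas Gabra2 did not pass (0.24 ± 0.29, edgeR adjusted p = 0.55).

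Neuronal calcium signalling genes summed to 24434 ± 2439.7 CPM after MCAO and 36343 ± 2489 CPM in controls. Of these, 12 of 16 fell (median -0.58), against 46.1% of all genes of at least 200 CPM (median -0.26). The kinase Camkk2 had 487, 685 and 775 CPM after MCAO and 999, 1230.4 and 1347 CPM in controls, with A and C in the upper part of the MCAO range (-0.85 ± 0.15, edgeR adjusted p = 4e-05). The store channel Itpr1 fell by a log2 change of -0.62 ± 0.11, Camk4 by -0.64 ± 0.13 and the calcium pump Atp2b1 by -0.46 ± 0.09. Neuropeptide and dense-core vesicle genes fell in 6 of 12 cases (median -0.48), and in 4 without A and C (median -0.26). They summed to 3965 CPM in controls. Among all genes, 29.9% from 50 to 200 CPM and 46.1% of at least 200 CPM fell, so the count is not read as a trait of the list. The peptide precursor Vgf and the growth-promoting Nrn1 fell by log2 changes of -0.82 ± 0.22 and -1.0 ± 0.27, or -0.53 and -0.66 without A and C, while the granins Chga and Chgb did not pass (0.00 ± 0.13 and -0.11 ± 0.14). Neuronal cytoskeleton genes fell in 8 of 14 cases, against 46.1% of all genes of at least 200 CPM. Among them were the light neurofilament Nefl (-0.63 ± 0.12) and tau, Mapt (-0.40 ± 0.10).

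Immediate-early genes of neuronal activity fell in 7 of 14 cases, with a median of -0.86, but in 2 without A and C (median -0.61) and in 2 without control library D and MCAO library C. Of all genes 14.4% from 10 to 50 CPM and 29.9% from 50 to 200 CPM fell. Egr1 had 96.4, 377 and 464 CPM after MCAO and 458, 604 and 1165 CPM in controls. Libraries A and C were lowest, and F reached the control range (-1.12 ± 0.34, edgeR adjusted p = 0.013, and -0.79 with adjusted p = 0.081 without A and C). Egr4 (-0.92 ± 0.24) and Homer1 (-0.73 ± 0.18) fell with and without those libraries, and Fos did not pass in either case (-0.26 ± 0.44, edgeR adjusted p = 0.68, and 0.20 with adjusted p = 0.73 without them).

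Axon regeneration genes moved both ways, 6 higher and 4 lower of 14 (median 0.30, and -0.14 under spike-in scaling). Among 12 control-detected members 4 rose and 4 fell. The tubulin Tubb6 had 6.49, 11.2 and 12 CPM after MCAO, against 0, 0.0748 and 0.3 CPM in controls. With 3 counts over all controls, the ratio was 98.4 (95% counting interval 33.4 to 479). Ecel1, a protease of injured neurons, rose by 1.64 ± 0.29 and the factor Sox11 by 0.56 ± 0.12, and the growth cone protein Gap43 did not pass (0.17 ± 0.13, edgeR adjusted p = 0.31).

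Among stress programmes, NRF2 antioxidant genes rose in 6 of 17 cases, with a median of 0.23 that was -0.22 under spike-in scaling. Hmox1, haem oxygenase-1 (ENSMUSG00000005413, chromosome 8, 75093621 to 75100589, plus strand), had 47.6, 78.4 and 158 CPM after MCAO and 1.2, 2.55 and 3.33 CPM in controls. C and E were its highest libraries, and every MCAO library was far above every control (5.24 ± 0.53, edgeR adjusted p = 6.1e-08). The factor Nfe2l2 itself, which encodes NRF2, rose by 1.86 ± 0.17, Prdx1 by 0.96 ± 0.13 and Txnrd1 by 0.91 ± 0.15. The antioxidant element TGACNNNGC was in 38.9% of 18 promoters of these genes and in 12.4% of all promoters.

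Iron handling genes rose in 6 and fell in 1 of 11 cases. Trf had 535, 667 and 1219.5 CPM after MCAO and 146, 165 and 187 CPM in controls (2.2 ± 0.20, edgeR adjusted p = 3.4e-09). The ferroxidase Cp rose by 2.03 ± 0.25, the reductase Steap3 by 2.42 ± 0.26 and the ferritin heavy chain Fth1 by 0.57 ± 0.09, and the transferrin receptor Tfrc fell by a log2 change of -0.65 ± 0.18, or -0.39 without A and C. Metallothionein and zinc genes rose in 2 and fell in 3 of 8 cases, but in 3 and 1 without A and C, in 2 and 1 without control library D and MCAO library C, and in 3 and 1 under total-count scaling, and their median of -0.12 was 0.02 without A and C and 0.02 under total-count scaling. Mt1 and Mt2 rose by 0.58 ± 0.15 and 1.12 ± 0.14, and the loader of synaptic zinc Slc30a3 was lower (-0.74 ± 0.25, edgeR adjusted p = 0.024), a call lost without MCAO library E (adjusted p = 0.055). Metal elements, TGCACNC or TGCGCNC, were in 62.5% of 8 promoters of these genes and in 25.7% of all promoters.

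Heat shock and chaperone genes rose in 6 and fell in 1 of 14 cases (median 0.33, and -0.13 under spike-in scaling), with the small heat shock proteins Hspb8 (1.56 ± 0.23) and Hspb1 (1.64 ± 0.37) and their partner Bag3 (1.21 ± 0.17) higher and Dnaja1 lower (-0.65 ± 0.13). Integrated stress and unfolded protein response genes rose in 13 and fell in 1 of 23 cases (median 0.51). Under spike-in scaling 3 rose and 4 fell (median 0.07). Rises included the endoplasmic reticulum proteins Sdf2l1 (1.65 ± 0.30), Pdia4 (1.15 ± 0.20, and 0.77 without A and C) and Calr (0.82 ± 0.16, and 0.53 without them) and the cystine transporter Slc7a11 (0.94 ± 0.18), and the factors Atf4 and Ddit3 did not pass (-0.02 ± 0.16 and 0.16 ± 0.15, edgeR adjusted p = 0.95 and 0.42). Of 17 p53 target genes 5 rose and 2 fell (median 0.26, 0.06 without A and C and -0.23 under spike-in scaling). Among 15 control-detected members 3 rose and 2 fell. The cell cycle inhibitor Cdkn1a rose by 1.35 ± 0.20 and Bax by 0.97 ± 0.21 (0.63 without A and C). Eda2r, a receptor of the TNF family, had no count in controls and was at least 17.3-fold higher. Cell death genes rose in 13 and fell in 1 of 18 cases (6 of 11 control-detected rose), with the inflammasome adaptor Pycard at 3.52 ± 0.27 and the initiator caspase Casp8 at 2.71 ± 0.43.

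Of 15 hypoxia response genes 3 rose and 3 fell, or 3 and 1 without A and C and 5 and 0 under total-count scaling, and their median of -0.04 was 0.11 without A and C and 0.09 under total-count scaling. Hexokinase 2, Hk2, had 30.3, 38.7 and 64.7 CPM after MCAO and 4.8, 6.14 and 9.98 CPM in controls, without overlap (2.67 ± 0.21, edgeR adjusted p = 2e-10). Vegfa was lower (-0.64 ± 0.20, edgeR adjusted p = 0.013), a call lost without A and C (-0.32, adjusted p = 0.063), which were its lowest libraries. Glycolytic enzymes fell in 3 and rose in 1 of 16 cases (median -0.07, -0.13 without A and C and 0.07 under total-count scaling), with Aldoc of astrocytes at -0.43 ± 0.12. Nuclear respiratory chain genes fell in 6 of 20 cases (median -0.23), and in 0 under total-count scaling, with the ATP synthase subunit Atp5g3 at -0.43 ± 0.13. These 20 genes are abundant, with a sum of 7795 CPM in controls. Their share of falls was below that given above for all genes of at least 200 CPM, so nothing is read from it. Genes encoded in mitochondria made up only 0.0128% of counts after MCAO and 0.0140% in controls. Of these, mt-Co2, mt-Co3, mt-Atp6, mt-Atp8, mt-Nd3 and mt-Nd4l had no count in any library of 3 months. Of 6 tested genes, 2 entered only with MCAO libraries. Among the 6, 1 fell, mt-Cytb (-0.76 ± 0.20, and -0.47 without A and C), and their median of -0.06 was 0.03 without A and C and 0.07 under total-count scaling. These values rest on a small residue of reads, and nothing is read from them about mitochondria.

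Proteasome genes rose in 4 and fell in 1 of 16 cases (median 0.14, 0.08 without A and C and -0.31 under spike-in scaling). The 4 rises were those of the interferon-inducible subunits Psmb8 (2.35 ± 0.27) and Psmb9 (1.7 ± 0.29) and of the activators Psme1 (0.96 ± 0.15) and Psme2 (0.55 ± 0.16), and the constitutive subunits Psma1 and Psma3 did not pass (-0.22 ± 0.20 and -0.02 ± 0.11). Ribosomal protein genes rose in 9 of 18 cases (median 0.48), or 1 under spike-in scaling, led by Rplp0 (1.31 ± 0.12). Such genes have many processed copies in the genome, and reads could be lost or split between them.

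Clock genes fell in 4 and rose in 1 of 17 cases, and times of day were not given in the labels. They summed to 2353 CPM in controls. Their share of falls was below the 29.9% of all genes from 50 to 200 CPM, so nothing is read from it. Arntl, which encodes BMAL1, had 4.3, 18.9 and 23 CPM after MCAO and 29, 33.9 and 41.8 CPM in controls, with A and C lowest (-1.17 ± 0.28, edgeR adjusted p = 0.002, and -0.73 without A and C). The output factor Hlf fell by a log2 change of -0.78 ± 0.16. Glucocorticoid response genes rose in 2 and fell in 3 of 11 cases, and their median of 0.09 was 0.05 without A and C and -0.36 under spike-in scaling, with Fkbp5 (0.45 ± 0.14) and Sgk1 (0.69 ± 0.20) higher. Of 12 long noncoding RNAs 2 rose and 6 fell. They summed to 25634 CPM in controls, and 46.1% of all genes of at least 200 CPM fell, so the falls are not read as a trait of the list. Neat1, the scaffold of paraspeckles, had 143, 219.7 and 450.0 CPM after MCAO and 65.5, 83.5 and 121 CPM in controls, without overlap (1.58 ± 0.21, edgeR adjusted p = 1.1e-06). Malat1 did not pass (-0.03 ± 0.15, edgeR adjusted p = 0.9), and Miat fell by a log2 change of -0.55 ± 0.13.

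Markers of tissue next to the cortex were counted as well. The 12 choroid plexus markers, of which 4 were tested, summed to 14.8 to 1541 CPM in MCAO libraries and 4.84 to 856 CPM in controls. Ttr, transthyretin of choroid plexus epithelium, had 1320 CPM in library C of MCAO and 753 CPM in library D of the controls, and 3.26 to 16.4 CPM in the other MCAO libraries and 1.51 to 8.12 CPM in the other controls. The median log2 change of the 4 markers was 1.09, and -2.78 without A and C. Striatal markers rose in 2 of 8 tested cases, in 0 without A and C and in 0 without control library D and MCAO library C. The dopamine receptor Drd1 had 26.1, 43.3 and 72.5 CPM after MCAO and 15.1, 20.7 and 46 CPM in controls, a call lost without A and C (0.94 ± 0.32, edgeR adjusted p = 0.025, against 0.78 and adjusted p = 0.12) and in 5 fits without 1 library (C or D of MCAO, B, D or F of the controls). Drd2 had 1 count over the MCAO libraries and 0 over the controls. Thalamic markers rose in 3 and fell in 1 of 6 cases (median 0.39, and -0.08 under spike-in scaling), with Prkcd at 1.82 ± 0.21 and Zic1 at 0.94 ± 0.18. Striatal markers summed to 402 ± 203 CPM after MCAO and 271 ± 82.1 CPM in controls, and thalamic markers to 159 ± 41.9 CPM after MCAO and 145 ± 12.8 CPM in controls.

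Skeletal muscle and ependymal markers had 3 tested genes each, with Tnni2 of muscle (1.89 ± 0.54, a call lost without A and C at 1.22, adjusted p = 0.11) and Rarres2 of ependyma (1.58 ± 0.47) higher and Acta1 of muscle lower (-0.68 ± 0.18). The muscle genes summed to 26.2 ± 5.49 CPM after MCAO and 35.9 ± 3.04 CPM in controls, and the ependymal genes to 15.7 ± 3.76 CPM after MCAO and 10.5 ± 4.04 CPM in controls, with a median log2 change of 0.39 that was 0.82 without A and C and -0.05 under spike-in scaling. Of 4 tested erythrocyte genes, all encoding haemoglobin chains, 2 rose (1 of 1 control-detected), and 0 without control library D and MCAO library C. Their sum was 34.6 ± 16.4 CPM after MCAO and 3.61 ± 2.77 CPM in controls, and MCAO library A, at 4.85 CPM, lay inside the control range of 1.2 to 7.51 CPM. The part of these tissues in the results above was not tested.

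Among genes of at least 20 CPM with no overlap between the groups, the 5 largest log2 falls were those of Mkx (-1.43 ± 0.25), Rspo1 (-1.41 ± 0.24), Ovol2 (-1.37 ± 0.22), the receptor kinase Ltk (-1.36 ± 0.19) and Neurod6 (-1.36 ± 0.20). The 15 largest also held the clathrin adaptor subunit Ap2a1 (-1.26 ± 0.22) and the synaptic adhesion protein Lrrc4c (-1.19 ± 0.26). Ap2a1 had 17.2, 24.9 and 30.5 CPM after MCAO and 42, 56.4 and 77.7 CPM in controls, with library C lowest. The corresponding rises included lysozyme of macrophages, Lyz2 (5.63 ± 0.51), with 53.5, 152 and 447 CPM after MCAO and 2.4, 3.86 and 5.83 CPM in controls, and the fibrillar collagen Col3a1 (5.84 ± 0.67). A and C were the highest libraries of Lyz2, and A alone of Col3a1.

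The response at 3 months was also set against that at 18 months, from the same comparison in mice of that age. The effect of MCAO differed between ages, by a test of the difference itself, in 12 genes (0.0822%), 6 with a higher log2 change at 3 months (0.0411%) and 6 with a lower one (0.0411%), and the unadjusted p was under 0.05 in 1561 (10.7%). These counts depended on single libraries: 44 and 91 genes differed without the MCAO libraries A and C, and 1 and 0 without control library D and MCAO library C. With 1 library left out they ran from 1 to 30 and from 0 to 38, both highest without MCAO library F of 3 months. DESeq2 called 62 and 56.

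Gfap, the astrocyte filament, had the smallest adjusted p, with a log2 change of 4.48 ± 0.16 at 3 months and 2.59 ± 0.14 at 18 months (difference 1.89 ± 0.20, edgeR adjusted p = 1e-05). It had 249 ± 35.2 CPM after MCAO and 11.2 ± 0.725 CPM in controls at 3 months, and 285 ± 37.4 CPM after MCAO and 47.3 ± 14.1 CPM in controls at 18 months. Its call held in all 24 fits that left out 1 library. Ccl3, a chemokine of microglia, had 5.49 ± 1.5 CPM after MCAO and 0.0308 ± 0.0753 CPM in controls at 3 months and 6.77 ± 1.05 CPM after MCAO and 0.994 ± 0.46 CPM in controls at 18 months (difference 3.89 ± 0.69, edgeR adjusted p = 0.027, lost in 3 of those 24 fits). That difference rests on 1 count over all controls of 3 months and so depends on the prior count of the fit. The fast potassium channel Kcnc1 had a log2 change of -0.39 ± 0.11 at 3 months and of -1.22 ± 0.11 at 18 months, with a difference of 0.82 ± 0.16 (edgeR adjusted p = 0.036, lost in 12 of the 24 fits).

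Rsad2, Isg15 and Ifi44, of the interferon response list, were among the 6 genes with a lower log2 change at 3 months. Rsad2, an antiviral enzyme, had 12.5 ± 4.26 CPM after MCAO and 5.21 ± 2.49 CPM in controls at 3 months and 72.7 ± 28.6 CPM after MCAO and 5.08 ± 1.52 CPM in controls at 18 months (difference -2.55 ± 0.41, edgeR adjusted p = 0.011, lost in 1 of the 24 fits). Isg15 had 226 ± 133 CPM after MCAO and 6.78 ± 3.37 CPM in controls at 18 months (difference -3.3 ± 0.57, edgeR adjusted p = 0.027, lost in 8), Ifi44 differed by -3.01 ± 0.60 (adjusted p = 0.045, lost in 16) and Helz2 by -2.44 ± 0.49 (adjusted p = 0.047, lost in 15). Podxl, a sialoprotein of vessels, rose at both ages, by 0.65 ± 0.14 and 1.65 ± 0.14, with a difference of -1.0 ± 0.19 (adjusted p = 0.038, lost in 13).

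**Figure D5:**
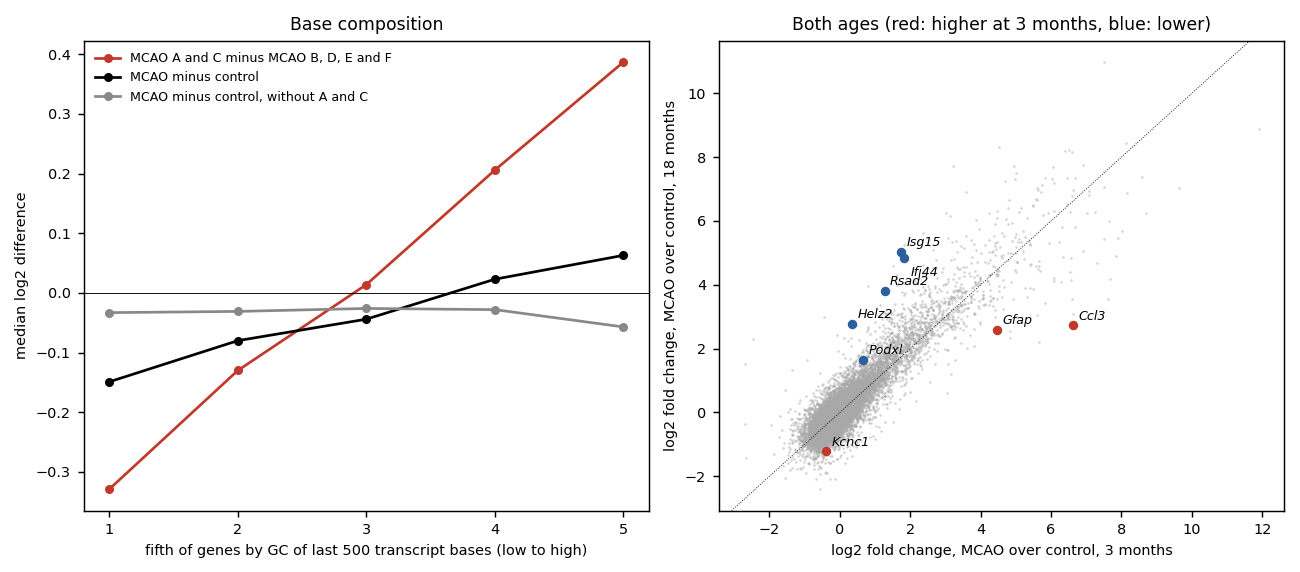
The left panel gives, for the genes in 5 classes of GC content of the last 500 transcript bases, the median log2 difference between MCAO libraries A and C and the other 4 (red), of MCAO over control (black) and of MCAO over control without A and C (grey), running from -0.33 to 0.39 for the first. The right panel gives the log2 change of MCAO over control at 3 months (x axis) and at 18 months (y axis) of all genes tested, with the named genes whose effects differed between ages in colour. The 2 comparisons share no library.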

How the data were processed

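The authors deposited raw counts per gene, with spike-in rows and summary lines, made from single reads at the 3′ ends of transcripts. The submitters' processing notes name Trimmomatic, HTSeq, DESeq2 and build GRCm38, with no versions, and no source used here gives the aligner or annotation. The normalised tables were not used. Gene identifiers were matched to symbols, positions and transcripts of GENCODE M21 (46488 of 46983). From the deposited counts, spike-ins and summary lines (outside genes, ambiguous, not unique) were left out. Whether strand was used in counting is not stated, so overlapping and antisense genes cannot be told apart, and reads of near-identical copies may be missing.

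Genes with enough counts by edgeR's filterByExpr (minimum count 10) entered a quasi-likelihood fit of edgeR 4.0.16 (limma 3.58.1, R 4.3.3) on all 24 libraries with 4 group means and TMM scaling, which then share 1 estimate of spread. Of 46983 genes 14599 were tested and 32384 were not. Contrasts were MCAO against control at 3 months and the difference of that effect between ages, and p-values were adjusted by Benjamini-Hochberg over all genes tested. A log2 fold change is followed by its standard error. CPM values were computed on TMM-scaled library sizes. The script was tested on simulated data. Library measures were compared by exact permutation over the 924 splits of 6 against 6, two-sided. Intervals and bounds cover counting error only (95% level, floor of 3 counts over a group).

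Members and the 72 gene lists were chosen with earlier results of these data known. Of 1082 list entries 1 had no match. Genes were named by a rule: the 3 members heading each list and its 5 of smallest p, any member of a list of at most 12, the 15 largest rises and falls in CPM, the 15 largest in log2 among genes of at least 20 CPM whose groups do not overlap, the 10 smallest p in each direction for the difference between ages, and the 10 genes most variable within MCAO, with predicted genes left out. Some genes that this rule names are not reported here. Snap25 was added after its values were seen. A list is described by its counts and median, with no test. The labels do not say that replicates are separate animals in so many words, so p-values may measure a spread that is partly technical. Same-lettered libraries of the groups had r of -0.03 to 0.22, against -0.22 to 0.21 for other letters, so letters were not taken as pairs. Letters A to C and D to F differed, however, in both groups of 3 months. At 1 common depth MCAO libraries showed 18260 to 18414 genes in A to C and 18709 to 18817 in D to F. Controls showed 17735 to 17805 and 17833 to 18143. Counts outside genes made up 28.5 to 29.1% and 31.8 to 33.7% after MCAO, and 29.4 to 30.4% and 30.9 to 32.5% in controls. The labels give no batch, and the part of this split in the results was not tested. Alternatives were other scalings, no filter on low counts, DESeq2 1.42.0, the 12 libraries of 3 months alone, a replicate block and fits without single or doubtful libraries. Promoter motifs were searched in RefSeq promoters of GRCm38.p6.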

Additional observations from a re-analysis of the deposited data

Results flagged for a closer look

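Within a group of 6, a library was marked where its gap to the nearest other library was above Dixon's 95% critical share of the group's range. This marked 37 of 708 sets of 6 values (5.23%), and 9 of the 37 were MCAO library A. The sets are not independent, since list sums hold genes that were also checked singly, so this share cannot be set against chance.

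In MCAO library A the highest value stood out for Acvrl1 (0.671 of the range), Cldn11 (0.626), Ddit3 (0.680), Gdf15 (0.698), Ifi44 (0.683), Mmp9 (0.708), Oasl2 (0.723), Prkcd (0.640) and Rsad2 (0.781). Mmp9 had 54.5 CPM there and 18.4 CPM in the next library. MCAO library F stood out for Ccr2 (0.790), Ecel1 (0.721), Gap43 (0.731), Jun (0.666) and Mrc1 (0.786), with 27.4 CPM of Mrc1 against 11.6 CPM in the next. MCAO library D was high for Chga (0.767) and Slc16a1 (0.718). MCAO library C was high for Ttr (0.990) and the sum of choroid plexus markers (0.986).

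Among controls, library D was high for Ttr (0.991), the sum of choroid plexus markers (0.991), Nfe2l2 (0.719), Ifi27l2a (0.711) and Folr2 (0.663), and low for Kcnj10 (0.733). Library C was high for Drd1 (0.784) and the sum of striatal markers (0.797, with 436 CPM against 260 CPM in the next), and low for Steap3 (0.785). Library A was high for Atf4 (0.707), Ntrk3 (0.635), the sum of thalamic markers (0.842) and Ccl3 (1.000, as the 1 control library with a count). Library B was high for Acta1 (0.744) and the sum of purinergic signalling genes (0.723), and low for Cd14 (0.627), Kit (0.755) and the sum of mast cell markers (0.746). Library E was high for Gbp5 (0.648).

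The effect of MCAO differed between ages, by the test of the difference given above, for Gfap (1.89 on the log2 scale, 3 months minus 18 months), Ccl3 (3.89), Kcnc1 (0.82), Rsad2 (-2.54), Isg15 (-3.30), Ifi44 (-3.01), Helz2 (-2.44) and Podxl (-0.997).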

How the results depend on the processing

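Depth of 3.53 to 13.1 M gene counts left 32384 genes without a test, among them most lymphocyte markers, and fold changes against controls with no count are bounds. Of the counts of changed genes, spike-in scaling gave 1411 higher and 6178 lower (1102 and 1362 by at least 1 on the log2 scale), total-count scaling 1211 lower (56 by at least 1), no filter on low counts 1656 lower, and the 12 libraries of 3 months alone 1572 lower (67 by at least 1). Without MCAO libraries A and C 86 fell by at least 1, and leaving out 1 library gave 78 (without MCAO A) to 228 (without MCAO B). Genes whose MCAO effect was higher at 3 months than at 18 months numbered 1 under spike-in scaling, 62 with DESeq2, 44 without A and C, 1 without control D and MCAO C, and 1 to 30 with 1 library left out. Those with a lower effect numbered 2, 56, 91, 0, and 0 to 38 under the same settings, the highest of both without MCAO F. The cause was not tested. The fit with letters as a replicate block gave 2894 higher and 2660 lower genes. In it 522 of 541 named genes kept their call or stayed without one, and 0 called genes turned direction. Of the MCAO libraries, 2 of 6 correlated best with their own letter.

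No gene called in both fits turned direction when A and C were left out, and 2275 of the risen and 1752 of the fallen genes kept their call. Of single genes, Ttr ran from -3.57 without MCAO C to 5.55 without control D, and the choroid plexus gene Prlr from -3.75 without MCAO C to 2.17 without control D, with -3.57 without A and C and -1.73 without control D and MCAO C. Under spike-in scaling 7 genes turned to values near 0, Tcf7l2 (-0.020), Slc4a4 (-0.075), Pdgfra (-0.056), Wnt7b (-0.037), Cry1 (-0.057), Ldha (-0.081) and Hspe1 (-0.007), and 69 lost their call. DESeq2 ended 5 calls of named genes and leaving out A and C ended 41.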

Other observations

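Cwc22, a splicing factor gene, stood at either of 2 separate levels in both groups, with 6.3 and 7.08 CPM in MCAO libraries D and C and 259 to 701 CPM in the other 4, and with 4.5 to 10.7 CPM in control libraries A, C, D and E and 290 and 295 CPM in B and F. Rpl34, of the large ribosomal subunit, was low in the same MCAO libraries D and C (14.6 and 16.3 CPM, against 279 to 404 CPM in the other 4) and in control libraries C, D and E (14.4 to 16.4 CPM, against 132 CPM in A and 238 and 260 CPM in B and F). The labels give no difference between these libraries. Unc5a, Tap2, Cog3, Sdhd and Tdrd7 were among the 10 most variable genes within MCAO, with libraries A and C lowest for each.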
